A study of Mus musculus with 56 samples.

Results

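The 6 genes described here, Ptger3, Adcyap1, Bdnf, Trpm2, Trpc4 and Nos1, were chosen by name because each marks or serves neurons of the preoptic area that control body temperature. They are 6 of the 17564 genes in the deposited table, and all 6 were measured in every mouse. Their levels are those of the whole dissected tissue, and the share that came from preoptic neurons was not tested. RNA was taken from the anterior hypothalamus, which holds the preoptic area, of female C57BL/6J mice aged 9 weeks that had been kept under 12 h of light and 12 h of darkness. For 7 days before sampling, one set of mice was fed only in the light period (DRF, day time-restricted feeding, food from ZT0 to ZT12) and the other only in the dark period (NRF, night time-restricted feeding, the reference). ZT is zeitgeber time, the number of hours after lights on. Samples were taken every 4 h from ZT0 to ZT24, at 7 time points, with 4 mice for each regimen and time point, giving 14 groups, 28 mice for each regimen and 56 in all.

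The preoptic area reads core and skin temperature and sets heat loss and heat production. In fever, prostaglandin E2 made in and around brain vessels acts on the EP3 receptor of preoptic neurons, and body temperature rises. Preoptic neurons that express PACAP and BDNF respond to warmth, and driving them lowers body temperature. Body temperature also has a daily rhythm that mealtimes can shift, so the same genes can be asked whether their transcripts follow the light cycle, the feeding schedule or neither.

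The 6 genes play different parts. Ptger3 encodes the EP3 receptor. Adcyap1 encodes the neuropeptide PACAP, and Bdnf a neurotrophin. Trpm2 encodes a cation channel opened by heat and by oxidative signals. Trpc4 encodes a calcium-permeable channel that opens downstream of receptors. Nos1 encodes the neuronal nitric oxide synthase. In mouse genome build GRCm38.p6, Ptger3 lies on chromosome 3 from 157566821 to 157644758, Trpc4 on chromosome 3 from 54155584 to 54318471 and Adcyap1 on chromosome 17 from 93198245 to 93206541. In the same build Bdnf lies on chromosome 2 from 109674700 to 109727043, Trpm2 on chromosome 10 from 77907722 to 77969909 and Nos1 on chromosome 5 from 117866839 to 117958840.

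No member was called rhythmic in either regimen, and none was called different between DRF and NRF when all time points were averaged. Nos1 changed across the DRF time points and was higher in DRF than in NRF at ZT16, and both calls depended on single libraries. Adcyap1 and Bdnf varied widely between mice of the same group, and they varied together. Trpc4 stood at about its usual level in 54 mice and far above it in 2. The values behind these statements follow, after the libraries that stand apart.

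The values are given as CPM, read counts scaled to a common library size, which were recovered from the deposited values. Differences and amplitudes are given in log2(CPM + 1), where the added 1 shrinks those of genes with few CPM, such as Ptger3. The normalized library size was between 29591266 and 34493344 reads. Replicates 3 and 4 of DRF ZT16 stood apart from the other 54 libraries in how counts depended on GC content. Their log2 values rose by 0.37 and 0.54 for each 10% of GC content, against slopes between -0.14 and 0.17 in the others. The 13 markers of the anterior hypothalamus, which include Avp, Oxt, Six3 and Sim1, were all detected, and their summed level was between 394 and 909 CPM in DRF and between 432 and 920.5 CPM in NRF. Markers of neighbouring tissue were present as well. Those of the tuberal and lateral hypothalamus, led by Pmch and Hcrt, summed to between 129.6 and 1189.9 CPM in DRF and between 365 and 1089.7 CPM in NRF. The tuberal and lateral sum thus varied several-fold between mice, and the part of dissection in this was not tested. In whole tissue, fewer cells of a type and less RNA per cell cannot be told apart.

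Per kilobase of transcript, Adcyap1 was the most abundant member, with a median of 37.3 CPM per kb over the 56 mice. Nos1 followed with 13.5 CPM per kb. Trpm2, Bdnf and Trpc4 were close together at 3.0, 2.62 and 2.23 CPM per kb. Ptger3, the fever receptor, was lowest at 0.263 CPM per kb. For Adcyap1 the length used, 2088 bases, is the one at which its reads came out whole, and not the annotated 3777 bases.

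Ptger3 rested on few reads, between 33 and 63 in each mouse. In DRF its level was between 1.06 CPM in replicate 4 of ZT0 and 2.02 CPM in replicate 1 of ZT12, with a median of 1.5 CPM. In NRF it was between 1.09 CPM in replicate 4 of ZT8 and 1.95 CPM in replicate 3 of ZT0, with a median of 1.47 CPM. The 2 regimens overlapped over nearly their whole range. Within groups Ptger3 varied by 14.5% of its mean, and counting error alone would give 14.6%, so the depth of sequencing limits what can be said about this receptor. Group means ran from 1.31 ± 0.278 CPM (SD, n = 4) in DRF ZT0 to 1.67 ± 0.216 CPM in DRF ZT20.

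Adcyap1 was spread most widely on the log2 scale, and by the coefficient of variation within groups it followed Trpc4, at 23.1% against 25.1%. In DRF it was between 35.1 CPM in replicate 2 of ZT20 and 143 CPM in replicate 2 of ZT16, with a median of 78.2 CPM. In NRF it was between 56.5 CPM in replicate 3 of ZT16 and 111 CPM in replicate 2 of ZT4, with a median of 75.5 CPM. Its SD within groups was 0.34 on the log2(CPM + 1) scale, above 99.5% of the 2430 genes whose mean level was within 0.5 of its own on that scale. Counting error, 2.03% of its mean, was small beside the 23.1% it varied by within groups.

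Bdnf showed a smaller spread of the same kind. In DRF it was between 10.4 and 27.8 CPM, with a median of 15.5 CPM, and in NRF between 12.8 and 22.0 CPM, with a median of 16.6 CPM. The lowest and the highest DRF mouse were the same as for Adcyap1. Its SD within groups, 0.21 on the log2(CPM + 1) scale, was above 91.8% of 2303 genes of like level.

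Trpm2 and Nos1 were steadier than Adcyap1 and Bdnf. Trpm2 was between 31.6 and 46.4 CPM in DRF, with a median of 38.0 CPM, and between 29.8 and 44.0 CPM in NRF, with a median of 36.6 CPM. Nos1 was between 124 and 174 CPM in DRF, with a median of 152 CPM, and between 124 and 173 CPM in NRF, with a median of 149 CPM. Their SDs within groups were 0.12 and 0.11 on the log2(CPM + 1) scale, above 71.3% of 2741 and 65.0% of 1467 genes of like level.

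**Figure D1:**
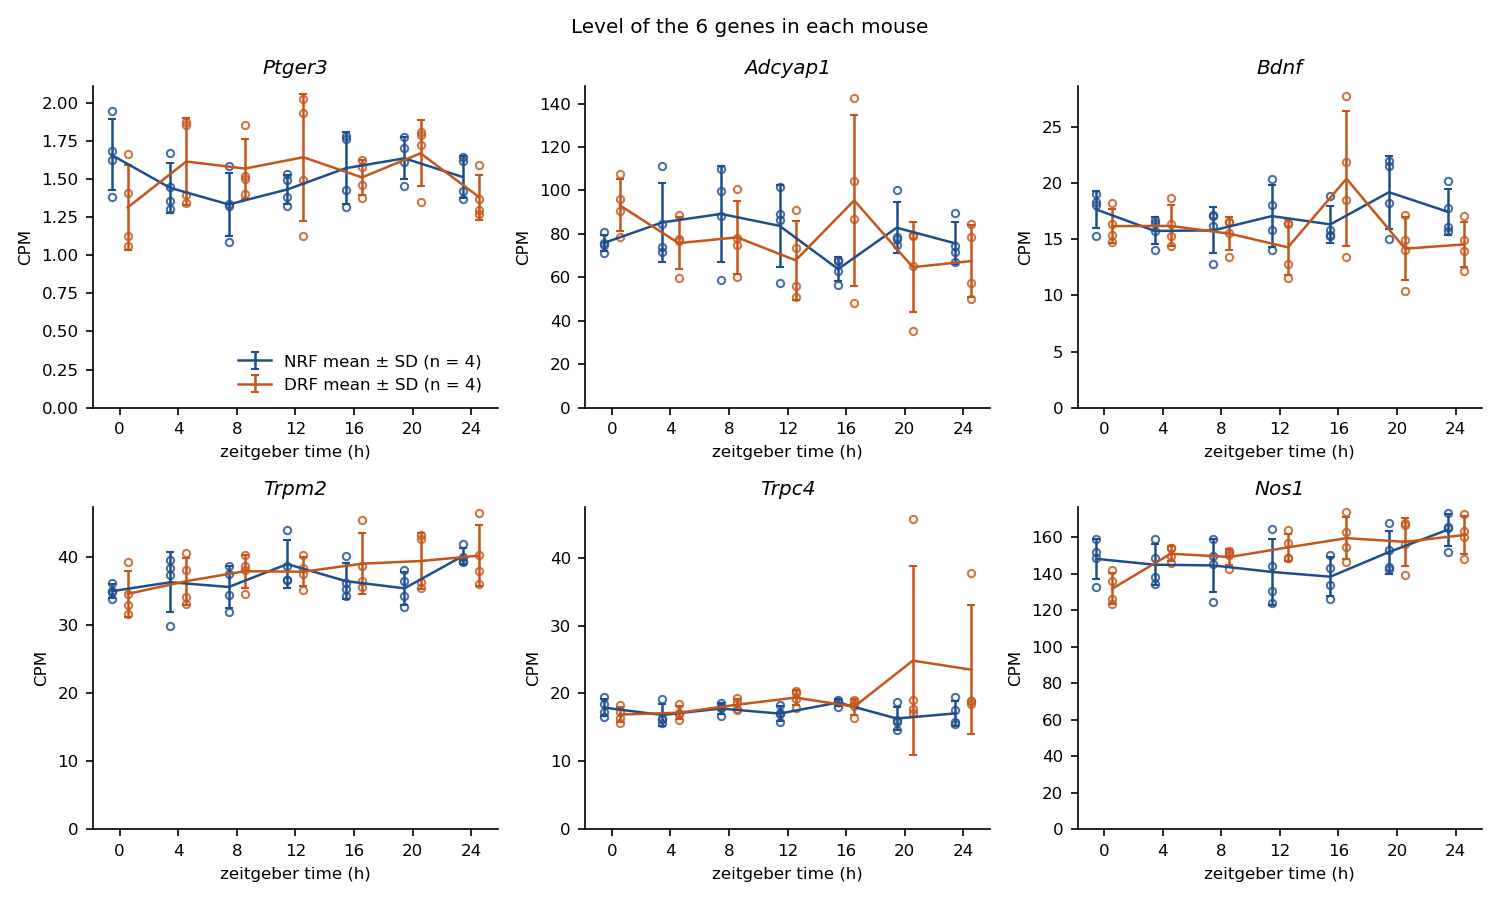
CPM of the 6 genes (vertical axes, starting at 0) against zeitgeber time in hours, with 1 open circle for each mouse and lines through the group means with SD bars (n = 4), DRF in orange and NRF in blue. The regimens overlap at every time point for every gene, and 2 DRF mice stand alone for Trpc4, at 45.7 and 37.8 CPM.

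When the 14 groups were put in order of their mean log2(CPM + 1), no gap between neighbours exceeded the larger SD of the 2 groups, for any of the 6 genes (13 neighbouring pairs each). Since 13 gaps share the whole range, small gaps are likely for any gene, and this does not test whether groups differ. The distance from the highest to the lowest group was 0.21 for Ptger3, 0.58 for Adcyap1, 0.47 for Bdnf, 0.21 for Trpm2, 0.46 for Trpc4 and 0.31 for Nos1 on the log2(CPM + 1) scale. DRF ZT20, which holds 1 of the Trpc4-high mice, was the lowest group for Adcyap1 and Bdnf and the highest for Trpc4.

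The first question was whether any of the genes follows a 24-h rhythm. A combination of the Lomb-Scargle periodogram with JTK_CYCLE, over periods of 20 to 28 h, called 0.813% of 16245 genes rhythmic in DRF and 27.7% in NRF at an adjusted p under 0.05. Of the 6 members, 0 were called in DRF and 0 in NRF. At an unadjusted p under 0.05 the same test called 4.33% of genes in DRF and 34.6% in NRF, and again 0 members in each. Ptger3 in NRF came nearest, with an adjusted p of 0.285 by the combined test, and it passed without replicate 3 of every group (adjusted p = 0.0395). Its cosine amplitude there was 0.086 ± 0.027 (SE) on the log2(CPM + 1) scale with a peak at ZT20.2, late in the dark period, against 0.055 ± 0.038 in DRF. Nos1 in NRF had an adjusted p of 0.480 by the same test and an amplitude of 0.079 ± 0.032 with a peak at ZT23.9. The other 4 genes had an adjusted p of 1 in both regimens. On the log2(CPM + 1) scale Adcyap1 had the largest amplitude in NRF among the members, 0.14 ± 0.074, and 0.024 ± 0.12 in DRF. This order may not hold without the added 1, which shrinks the amplitude of a gene as low as Ptger3. A cosine fit with limma, which called 27.9% of 16087 genes in NRF and 4.01% in DRF, also called 0 members, and its smallest adjusted p was 0.110, for Nos1 in NRF.

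The difference of the 24-h rhythm between DRF and NRF was tested in 1 limma fit over all mice, which called 11% of 16087 genes. It called 0 of the 6 members. At an unadjusted p under 0.05 it called 2 of 6 members beside 29.3% of genes. Nos1 had an unadjusted p of 0.0237 and an adjusted p of 0.112, and Ptger3 an unadjusted p of 0.0349 and an adjusted p of 0.140. The remaining 4 had adjusted p-values between 0.628 and 0.824. A moderated F test of whether the DRF minus NRF difference varied over the 7 time points called 13% of genes and 0 members. At an unadjusted p under 0.05, 32.5% of genes and 2 members passed. The smallest adjusted p-values there were 0.122 for Nos1 and 0.135 for Bdnf by limma. For Bdnf this adjusted p fell to 0.0449 without replicates 3 and 4 of DRF ZT16, and to 0.0276 without replicate 4 alone, where that of Adcyap1 was 0.0487.

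The averaged difference between the regimens was small for each gene. With limma, 10.4% of genes differed between DRF and NRF averaged over the time points, 5.59% higher and 4.85% lower in DRF, and 0 of the 6 members did. At an unadjusted p under 0.05, 26.2% of genes and 1 member, Trpc4, passed. Trpc4 was higher in DRF by 0.14 on the log2(CPM + 1) scale (95% confidence interval 0.01 to 0.26, adjusted p = 0.140 by limma). Without the 2 Trpc4-high mice this difference was 0.055, with an adjusted p of 0.153. Bdnf was lower in DRF, with a difference of -0.11 (interval -0.22 to 0.0018, adjusted p = 0.199 by limma). The intervals for Ptger3 were -0.062 to 0.074, for Trpm2 -0.025 to 0.104 and for Nos1 -0.012 to 0.101. Adcyap1, with an interval from -0.24 to 0.11, left the most room for a difference.

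**Figure D2:**
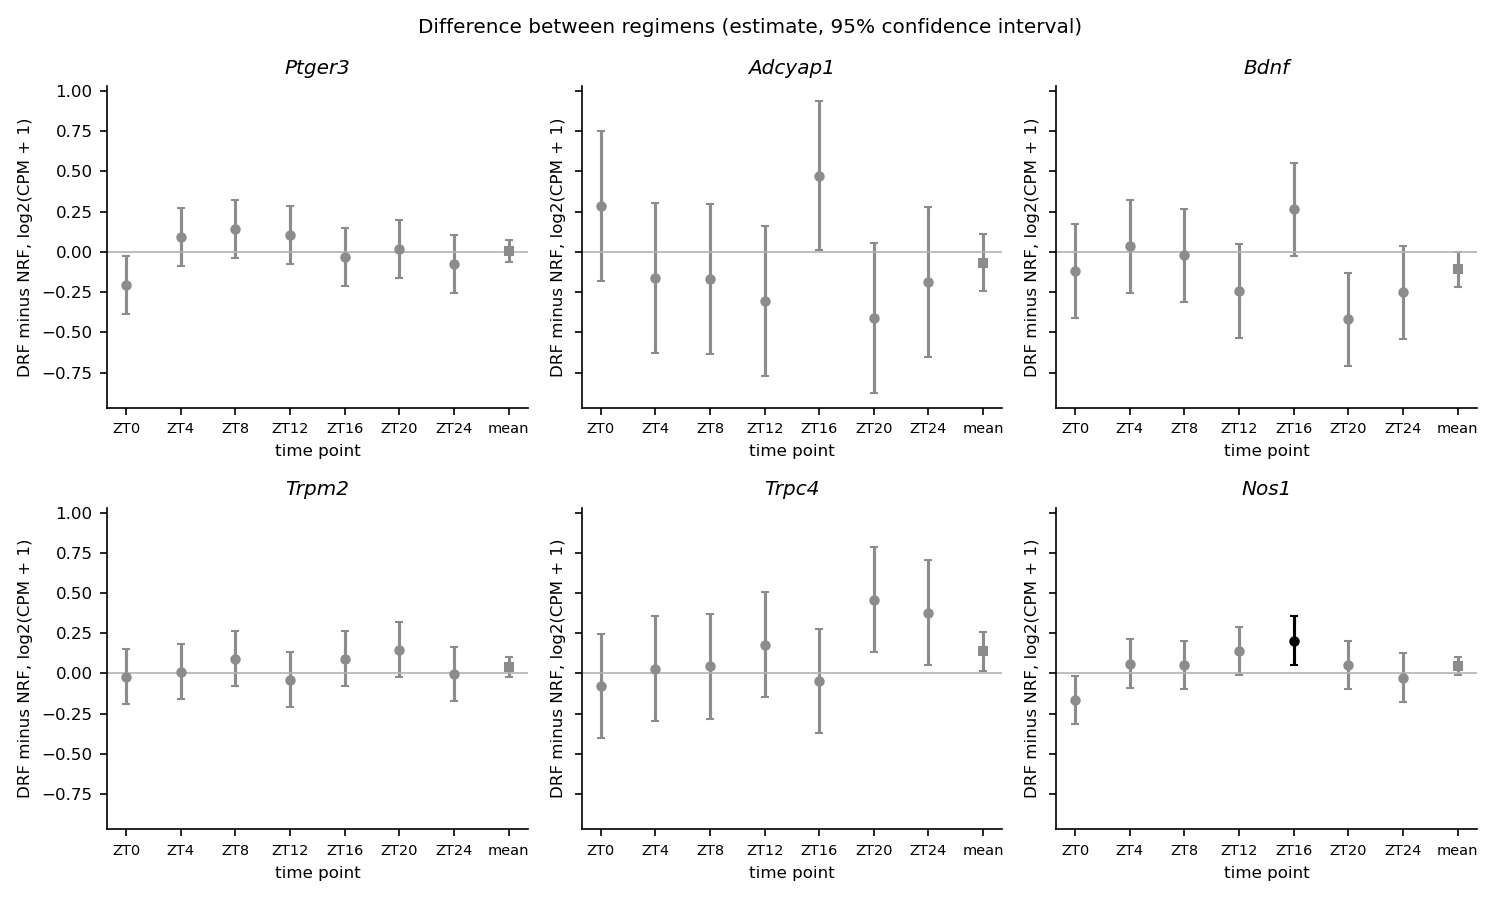
DRF minus NRF difference in log2(CPM + 1) (vertical axes) for the 6 genes at each time point (circles) and averaged over the 7 time points (squares), each with its 95% confidence interval, black where the adjusted p was under 0.05 and grey elsewhere. Nos1 at ZT16, with a difference of 0.20, is the 1 black point, and the intervals of Adcyap1 are the widest.

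At single time points, 1 of 42 gene and time point pairs passed the test, Nos1 at ZT16, where 20% of all genes passed and 6.66% passed with the higher level in DRF. At the other time points the share of all genes that passed was 4.52% at ZT0, 3.89% at ZT4, 0.143% at ZT8, 1.49% at ZT12, 1.1% at ZT20 and 0.323% at ZT24. In DRF ZT16 the 4 mice had 163, 147, 155 and 174 CPM of Nos1. In NRF ZT16 the 4 mice had 150.4, 126, 143 and 134 CPM. The highest NRF mouse was above the lowest DRF mouse, so the groups overlapped. The means were 159.6 ± 11.7 and 138 ± 10.7 CPM (SD, n = 4 each), and the difference was 0.20 on the log2(CPM + 1) scale (SE 0.074, adjusted p = 0.0449 by limma). Without replicates 3 and 4 of DRF ZT16, which stood apart in their GC slope, the difference was 0.16 with an adjusted p of 0.505 by limma. The call was also lost by leaving out DRF ZT16 replicate 1, 3 or 4 (adjusted p = 0.0639, 0.0957 and 0.244 by limma) or NRF ZT16 replicate 2, 3 or 4 (adjusted p = 0.171, 0.0547 and 0.116). In these fits the difference itself was between 0.16 and 0.22.

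Among pairs that did not pass, the largest differences belonged to Adcyap1, Trpc4 and Bdnf. Adcyap1 in DRF ZT16 had 86.7, 143, 104 and 48.0 CPM, against 67.6, 63.0, 56.5 and 68.0 CPM in NRF ZT16. Of the 4 DRF mice, 3 were above all NRF mice and 1 was below them all. The difference was 0.47 (SE 0.23, adjusted p = 0.138 by limma). It was 0.67 with library trends removed and 0.79 with array weights, both past the threshold (adjusted p = 0.0323 and 0.0185 by limma). Bdnf at ZT16, with a difference of 0.26 (adjusted p = 0.189), also passed with library trends removed, at 0.50 (adjusted p = 0.0129). The DRF mouse below the others, replicate 4, is the one with the steepest GC slope. Bdnf in NRF ZT20 had 22.0, 18.2, 15.1 and 21.5 CPM, against 17.2, 10.4, 14.1 and 15 CPM in DRF ZT20. These groups overlapped, and the difference was -0.42 (SE 0.14, adjusted p = 0.146 by limma). Bdnf was not past the threshold at ZT20 under any of 72 alternatives, where its adjusted p was between 0.0726 and 0.440 by limma. The groups of DRF and NRF overlapped for every member at every time point, whereas between 6.33% and 14.5% of all genes had groups that did not overlap.

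Change across time points of any shape, which need not be a 24-h rhythm, was tested separately. By limma 32.6% of genes changed across the DRF time points and 29.8% across the NRF time points. In DRF 1 of 6 members passed, Nos1 (adjusted p = 0.0264 by limma), and in NRF 0 of 6 passed, with Nos1 again lowest (adjusted p = 0.0987). At an unadjusted p under 0.05, 41.9% of genes and 1 member, Nos1, passed in NRF, and without replicate 4 of NRF ZT12 its adjusted p was 0.0252 by limma. In DRF the mean of Nos1 was 132 ± 8.54 CPM at ZT0, 151 ± 4.04 at ZT4, 149 ± 4.55 at ZT8, 155 ± 7.36 at ZT12, 159.6 ± 11.7 at ZT16, 158 ± 13.1 at ZT20 and 161 ± 10.2 at ZT24 (SD, n = 4 each). The DRF ZT0 group was the lowest of the 14 groups. Without replicate 1 or replicate 3 of DRF ZT0 the call was lost (adjusted p = 0.103 and 0.120 by limma), and without replicates 3 and 4 of DRF ZT16 its adjusted p was 0.0618. Bdnf (adjusted p = 0.0795 by limma in DRF) passed without replicate 4 of DRF ZT16 or replicate 1 of DRF ZT20 (0.0105 and 0.0429), and Adcyap1 (0.199) passed without the former (0.0408).

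ZT0 and ZT24 are the same time of day on consecutive days, measured in different mice, and a strict 24-h rhythm would give them 1 level. This comparison was chosen after the values were seen. At ZT0 of DRF the 4 mice had between 124 and 142 CPM of Nos1, and at ZT24 between 148 and 173 CPM. These ranges did not overlap, which was so for 9.54% of all genes in DRF. The ZT24 minus ZT0 difference of Nos1 was 0.29 on the log2(CPM + 1) scale (SE 0.074, adjusted p = 0.0532 by limma), in a test that called 0.46% of genes. In NRF, where 2.23% of genes were called, the difference was 0.15 (adjusted p = 0.267). The shares of genes called rested on single libraries, since the DRF share was 0.0249% without DRF ZT24 replicate 4 and 0.789% without DRF ZT24 replicate 1, and the NRF share was 0.0124% without NRF ZT0 replicate 2. Trpc4 did not overlap either in DRF, with 15.6 to 18.3 CPM at ZT0 and 18.4 to 37.8 CPM at ZT24. Its difference was 0.39 (adjusted p = 0.238 by limma), and 0.14 without the high replicate 2 of ZT24. Adcyap1 was lower at ZT24 of DRF, with a difference of -0.48 (adjusted p = 0.313 by limma). For Trpm2 the ZT24 minus ZT0 difference was 0.21 in DRF and 0.19 in NRF (adjusted p = 0.224 and 0.188 by limma). In NRF its mice at ZT0, from 33.8 to 36.2 CPM, and at ZT24, from 39.3 to 41.9 CPM, did not overlap, as was so for 21.7% of all genes there.

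Trpc4 was the gene in which single mice counted most. Its SD within groups, 0.24 on the log2(CPM + 1) scale, was above 95.1% of 2393 genes of like level. At DRF ZT20 the 4 mice had 17, 45.7, 19 and 17.6 CPM, and at DRF ZT24 they had 18.4, 37.8, 18.9 and 18.9 CPM. Replicate 2 was high in both groups. All other 54 mice were between 14.6 and 20.4 CPM, with a median of 17.9 CPM, so the high libraries were 2.55 and 2.11 times that median. The same 2 libraries were outside the range of the other 54 for Dgkg, a diacylglycerol kinase, with 149 and 128 CPM against 66.1 to 85.9. They were so for Thbs4, a thrombospondin, with 8.89 and 4.18 CPM against 0.75 to 2.11, and for Igfbpl1, with 8.28 and 5.52 CPM against 1.17 to 2.62. These 3 genes had the highest correlation with Trpc4 over the 56 mice (Pearson's r 0.85, 0.84 and 0.82 among 13926 genes), and without the 2 libraries r was 0.28, 0.16 and 0.18. The mean log2(CPM + 1) of the anterior hypothalamus markers was 3.8 and 3.97 in these libraries, below all others (4.07 to 4.79). The choroid plexus and ependyma markers were at 3.68 and 3.79, above 53 and 54 of the other 54 libraries. Other regional lists were shifted as well. The tuberal and lateral hypothalamus markers, at 3.44 and 4.53, were above 0 and 3 of the 54. Markers of cortex were above 51 and 51, of oligodendrocytes above 50 and 47 and of thalamus above 45 and 42. Those of striatum were above 50 and 28, of endothelium 52 and 23, of microglia 43 and 18, of pituitary 8 and 38 and of astrocytes 27 and 8. The part of dissected tissue in the Trpc4 level was not tested.

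**Figure D3:**
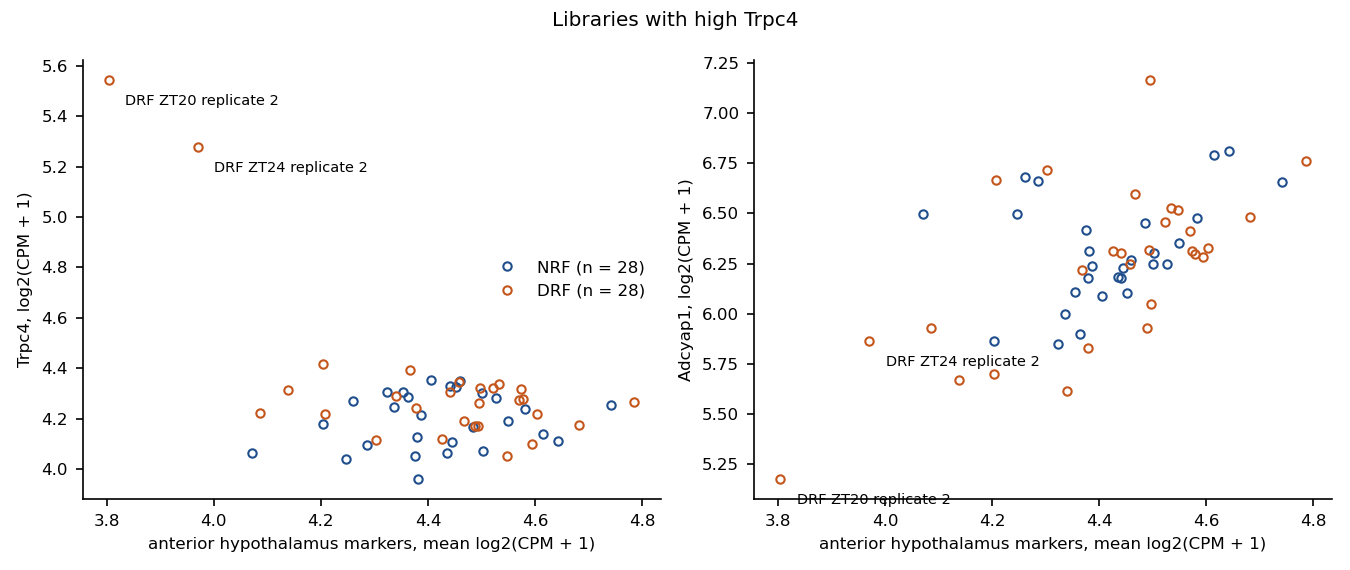
Trpc4 (left) and Adcyap1 (right) in log2(CPM + 1) against the mean log2(CPM + 1) of the 13 anterior hypothalamus markers, with 1 circle for each of the 56 mice, DRF in orange and NRF in blue. The 2 named DRF libraries have the lowest marker levels, 3.8 and 3.97, and Trpc4 levels far above the rest.

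The genes were next compared with each other across mice. Of 81 relations computed (15 pairs of members and 66 of a member with a marker list), 6 pairs and 23 list relations had an adjusted p under 0.05 by permutation. Adcyap1 and Bdnf rose and fell together, with Pearson's r 0.77 and Spearman's rho 0.68 over 56 mice (permutation p = 1e-05 for both, the smallest that 100000 permutations can give, adjusted p = 9e-05 for r). This r was 0.89 within DRF, 0.52 within NRF and 0.68 without the 2 mice farthest from the median of Adcyap1. It was 0.86 for deviations from the group means. Trpm2 ran against Adcyap1, with r -0.68 and rho -0.64 (permutation p = 1e-05 for both, adjusted p = 9e-05 for r), r -0.73 in DRF, -0.61 in NRF and -0.71 without the 2 mice farthest from the median of Adcyap1. Trpm2 and Nos1 were positively related, with r 0.42 and rho 0.38 (permutation p = 0.00133 and 0.00415, adjusted p = 0.00513 for r), which was 0.58 in DRF and 0.24 in NRF and 0.36 without the 2 mice farthest out. For deviations from the group means r was 0.25 for Trpm2 and Nos1, and -0.78 for Adcyap1 and Trpm2. The other pairs that passed were negative. They were Adcyap1 and Trpc4 (r -0.52), Bdnf and Trpc4 (-0.46) and Bdnf and Trpm2 (-0.45), with permutation adjusted p = 0.000945, 0.00513 and 0.00308. For deviations from the group means these r values were -0.43, -0.35 and -0.57. Without the 2 Trpc4-high libraries those with Trpc4 were -0.33 and -0.34. Ptger3 was related to no other member, with r between -0.13 and 0.20. It was correlated with the thalamus markers, at r 0.34 and rho 0.36 (permutation p = 0.00971 and 0.00732, adjusted p = 0.0291 for r). This r was 0.32 in DRF, 0.46 in NRF and 0.42 for deviations from the group means.

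Marker levels of the target tissue and of its neighbours moved with these genes. The mean of the 13 anterior hypothalamus markers was correlated with Adcyap1 at r 0.56 and rho 0.47 (permutation p = 2e-05 and 0.00025, adjusted p = 0.000162 for r) and with Trpm2 at r -0.58 and rho -0.58 (permutation p = 1e-05 for both, adjusted p = 9e-05 for r). Without the 2 mice farthest out these r values were 0.42 and -0.55. For Bdnf and the anterior hypothalamus markers, r was 0.33 and rho 0.25 (permutation p = 0.016 and 0.0604, adjusted p = 0.0447 for r). This r was 0.52 in DRF, -0.11 in NRF and 0.16 without the 2 mice farthest out. Bdnf ran against the striatum markers, at r -0.63 and rho -0.61 (permutation p = 1e-05 for both, adjusted p = 9e-05 for r), and -0.58 without the 2 mice farthest out. The mean of the 7 tuberal and lateral hypothalamus markers was correlated with Adcyap1 at r 0.77 and rho 0.70 (permutation p = 1e-05, adjusted p = 9e-05), at 0.81 in DRF, 0.67 in NRF and 0.68 without the 2 mice farthest out. With Bdnf it gave r 0.56 and rho 0.47 (permutation p = 1e-05 and 0.00029, adjusted p = 9e-05 for r), at 0.69 in DRF and 0.28 in NRF, and 0.42 without the 2 mice farthest out. With Trpm2 it gave r -0.64 and rho -0.68 (permutation p = 1e-05, adjusted p = 9e-05), and -0.58 without the 2 mice farthest out. The 7 cortex markers ran the other way, with r -0.66 and rho -0.67 for Adcyap1 (permutation p = 1e-05 for both, adjusted p = 9e-05 for r) and r 0.49 and rho 0.48 for Trpm2 (permutation p = 0.00012 and 0.00026, adjusted p = 0.000884 for r). Without the 2 mice farthest out these r values were -0.66 and 0.58. For Trpc4 and the anterior hypothalamus markers, r was -0.51 and rho -0.10 over all mice (permutation p = 0.00068 and 0.454, adjusted p = 0.00344 for r), and r was 0.036 without the 2 mice farthest out, which are the 2 Trpc4-high libraries, so this relation rests on those mice. With the tuberal and lateral marker level as a covariate, the ZT16 difference of Adcyap1 was 0.20 in place of 0.47, and with the cortex and striatum markers it was 0.19. Trpm2 also rose with the thalamus and oligodendrocyte markers, at r 0.43 and 0.39 (permutation adjusted p = 0.00374 and 0.0126). The part of dissected tissue in the relations with marker lists was not tested, nor was which cells these transcripts came from.

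**Figure D4:**
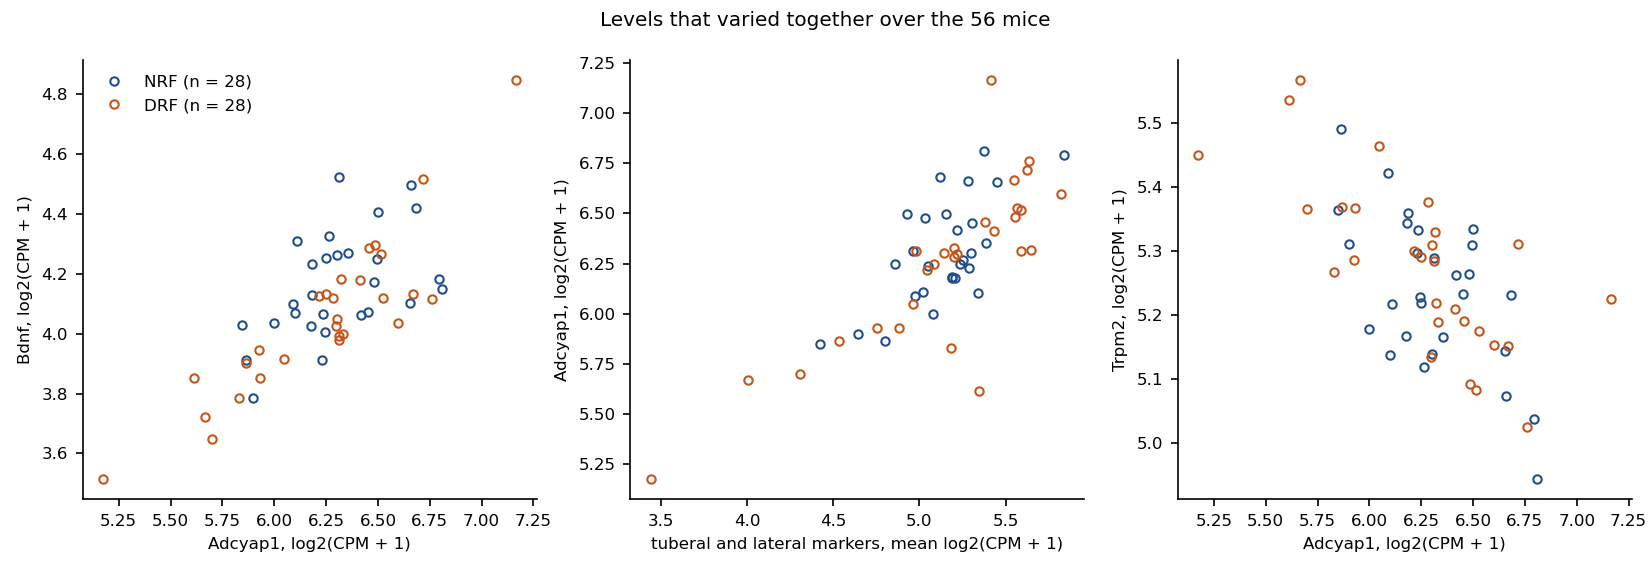
Each circle is 1 of the 56 mice, DRF in orange and NRF in blue, on log2(CPM + 1) axes, with Bdnf against Adcyap1 (left), Adcyap1 against the mean of the 7 tuberal and lateral hypothalamus markers (middle) and Trpm2 against Adcyap1 (right). The first and second relations rise, with r 0.77 in both, and the third falls, with r -0.68.

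The genes most like each member across the 56 mice were taken by Pearson's r of log2(CPM + 1) among 13926 genes. For Adcyap1 they were Pam (r 0.88), the enzyme that amidates neuropeptides, Ddc (0.86), the aromatic amino acid decarboxylase, and H2-Q2 (0.85), a member of a gene family with near-identical copies whose counts are uncertain. For Bdnf they were Adcyap1 itself (0.77), Irx5 (0.76), a homeobox factor, and Cbln2 (0.76), a synaptic organizer. Trpm2 was most like Gramd1b (0.84), Tln2 (0.84) and Pcnx2 (0.82), and Nos1 most like Csmd2 (0.78), Tex2 (0.76) and Arhgap35 (0.76). Ptger3 had no close companion, with Bicd2 (0.53), Ankrd26 (0.51) and Rnf130 (0.51) at the top. The 56 mice fall into groups by regimen and time point, and the r values are given as a description.

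Because Adcyap1 and Bdnf moved together, their RefSeq promoter windows (250 bases before to 50 after a start site, build GRCm38.p6) were read for sequence motifs. The 6 genes have 13 windows, of which 7 belong to Bdnf and 2 to Adcyap1. Both strands were searched for 11 patterns. They were the clock E-box CACGTG, the cAMP response element TGACGTCA with its shorter form TGACGT and the near match TGACGCAA, the D-boxes TTATGTAA as well as TTACGTAA, the nuclear receptor site AGGTCA next to the AP-1 site TGACTCA, the CCAAT box, the GC box GGGCGG and the pattern GAATGTTC. TGACGT is part of TGACGTCA, which the factor CREB binds. Among the 6 genes, TGACGT was present in windows of Adcyap1 and Bdnf only, in 3 of the 13 windows, and 7.51% of all 32851 windows hold it. These 2 genes have most of the 13 windows and so more places for a match. Whether the pattern bears on their levels was not tested. The stretches are shown here because these 2 genes share the pattern, in capitals, which stands as its reverse complement in Bdnf.
Adcyap1, chr17:93198914-93198943, plus strand: ggactaggatgcTGACGTcttttactgata
Bdnf, chr2:109692388-109692417, plus strand: atatgacagctcACGTCAaggcagcgtgga
In Adcyap1 the match begins 91 bases before one annotated start site, and the second window of the gene overlaps the same site. In Bdnf it begins 36 bases before the start site of 1 of the 7 windows. The full TGACGTCA was in none of the 13 windows and in 1.79% of all windows. The E-box CACGTG and the D-box TTATGTAA were in none of the 13 windows either, and in 7.15% and 0.938% of all windows. The GC box was in windows of Bdnf, Ptger3, Trpc4 and Trpm2 and in 35.7% of all windows, the CCAAT box in Adcyap1 and 37.4%, and AGGTCA in Bdnf and 16.3%. TGACGCAA, the AP-1 site, TTACGTAA and the last pattern, present in 0.49%, 5.2%, 0.119% and 0.852% of all windows, were in none of the 13. These are matches of letters, and no binding was measured.

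The pathways around the 6 genes were described through 6 lists with 77 genes, of which 75 were tested. None of the 75 was rhythmic in DRF and 14 were in NRF, where 27.7% of all genes were. Of the 75, 28 changed across the DRF time points and 16 across the NRF time points by limma, beside 32.6% and 29.8% of all genes. A rhythm difference between DRF and NRF was called for 5 list genes, where 11% of all genes were called, and the averaged level for 8 of the 75, where 10.4% of all genes were called. The median amplitude of the lists in NRF ran from 0.050 for the neurotrophin pathway to 0.20 for PACAP receptors and relatives, beside 0.073 for all genes. A fitted amplitude is never negative and grows with the spread between mice, so a high median does not by itself mean more rhythm. The gene at the PACAP list's median, Vip, was not called rhythmic (adjusted p = 0.496 by the combined test). Of the rhythm calls in NRF named here, those of Hpgd, Ptges3, Ramp2 and Dynll1 were lost in 1 of 18 alternatives each, and that of Trpm4 in 3. Those of Abcc4, Trpm3 and Asl were lost in 14, 11 and 10, those of Ddah2, Ptges2 and Ramp1 in 8 each, and that of Pde5a in 7.

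**Figure D5:**
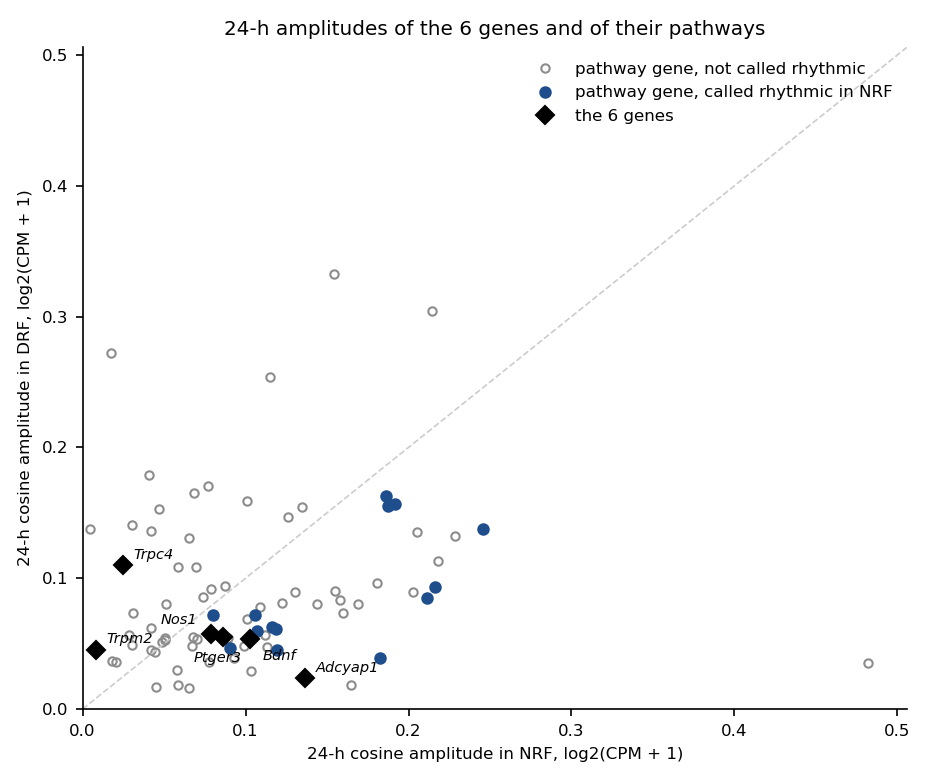
Amplitude of a 24-h cosine fitted to log2(CPM + 1) in DRF (vertical axis) against NRF (horizontal axis) for the 6 genes (black diamonds) and the genes of 6 pathway lists (circles), filled blue where the gene was called rhythmic in NRF. Ramp2 has the highest NRF amplitude of the called genes, 0.25, and none of the 6 genes was called.

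In the prostaglandin E2 pathway, 4 of 11 genes were rhythmic in NRF and 0 in DRF, beside 27.7% and 0.813% of all genes. A rhythm difference between the regimens was called for 1 of the 11, beside 11% of all genes. Hpgd, the dehydrogenase that breaks down prostaglandin E2, peaked at ZT18.3 in NRF and at ZT5.75 in DRF in the cosine fit, with amplitudes of 0.19 and 0.16. The rhythms differed with an adjusted p of 0.000388 by limma, and the call was kept under all 79 alternatives. Ptges3, a prostaglandin E synthase that also serves as an Hsp90 co-chaperone, had an amplitude of 0.18 in NRF with a peak at ZT20.2 (adjusted p = 4.5e-05 by the combined test). The amplitudes of Abcc4, an exporter of prostaglandins, and Ptges2, another synthase, were 0.11 and 0.080 in NRF (adjusted p = 0.0368 and 0.0112 by the combined test). None of the 11 genes differed between regimens on average by limma, beside 10.4% of all genes. The list's median difference was -0.021, beside -0.0023 for all genes.

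Of the 7 PACAP receptors and relatives, 2 were rhythmic in NRF, beside 27.7% of all genes. Ramp2, a partner protein of peptide receptors, had an amplitude of 0.25 with a peak at ZT11.6 (adjusted p = 4.24e-07 by the combined test), and in DRF an amplitude of 0.14 with a peak at ZT14.4. The rhythms differed with an adjusted p of 0.0336 by limma, which was lost in 9 of 79 alternatives. Ramp1 had an amplitude of 0.12 in NRF (adjusted p = 0.0116 by the combined test). Averaged over time, 1 gene was higher and 1 was lower in DRF, beside 5.59% and 4.85% of all genes. Adcyap1r1, the PACAP receptor PAC1, was higher in DRF, at 455 ± 23.4 CPM against 436 ± 22.7 CPM (SD, n = 28 each, difference 0.062, adjusted p = 0.0244 by limma), a call lost in 5 of 72 alternatives. Ramp3 was lower in DRF, at 8.0 ± 3.89 against 13.6 ± 9.12 CPM (difference -0.57, adjusted p = 0.0352 by limma), a call lost in 17 of 72 alternatives. Ramp3 is also among the thalamus markers, whose summed level was between 120 and 352 CPM in DRF and between 127 and 537 CPM in NRF, and the part of thalamic tissue in this result was not tested.

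In the neurotrophin pathway, 10 genes were tested, and none was rhythmic in DRF, where 0.813% of all genes were. Averaged over time, 2 of the 10 genes were higher in DRF and none was lower, beside 5.59% and 4.85% of all genes. Crtc1, a coactivator of CREB, was at 175 ± 15.2 CPM in DRF and 162 ± 9.54 CPM in NRF (SD, n = 28 each, difference 0.10, adjusted p = 0.0173 by limma). Ntrk3, the receptor of neurotrophin 3, was at 152 ± 11.1 against 144 ± 10.8 CPM (difference 0.085, adjusted p = 0.00663 by limma). These calls were lost in 4 and 3 of 72 alternatives. The list's median difference was 0.051, beside -0.0023 for all genes.

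In the nitric oxide pathway, 5 of 15 genes were rhythmic in NRF and 0 in DRF, beside 27.7% and 0.813% of all genes. Pde5a, which breaks down cyclic GMP, had an amplitude of 0.21 with a peak at ZT19.7 (adjusted p = 0.00585 by the combined test). Ddah2, from the family of dimethylarginine dimethylaminohydrolases, had 0.19 with a peak at ZT8.47, and Asl, an enzyme of arginine synthesis, 0.12 with a peak at ZT7.21 (adjusted p = 0.0062 and 0.0206 by the combined test). Dynll1, a dynein light chain that binds the NOS1 protein, had an amplitude of 0.12 in NRF with a peak at ZT21.3 (adjusted p = 0.000204 by the combined test). Dynll1 was lower in DRF, at 153 ± 14.9 against 163 ± 16.1 CPM (difference -0.086, adjusted p = 0.0231 by limma), a call lost in 4 of 72 alternatives. The rhythm differed between regimens for Dynll1 and Nos2, the inducible synthase (adjusted p = 0.041 and 0.0277 by limma), calls lost in 27 and 9 of 79 alternatives. Nos2 was low, at 0.85 and 0.94 CPM in DRF and NRF.

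Of the other TRP channels, 2 of 15 tested were rhythmic in NRF, beside 27.7% of all genes. Trpm4, a calcium-activated channel, had an amplitude of 0.22 with a peak at ZT7.79 (adjusted p = 0.000645 by the combined test), and its rhythm differed from that in DRF (amplitude 0.093, adjusted p = 0.0102 by limma), a call lost in 4 of 79 alternatives. Trpm3, another heat-sensitive channel, had an amplitude of 0.19 in NRF (adjusted p = 0.0335 by the combined test). It was higher in DRF, at 62.2 ± 11 against 56.1 ± 10.9 CPM (SD, n = 28 each, difference 0.15, adjusted p = 0.038 by limma), a call lost in 17 of 72 alternatives. Trpm2 and Trpc4, the members of this family described above, passed none of these tests.

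Of the 17 preoptic neuron markers, none was rhythmic in either regimen, beside 27.7% of all genes in NRF and 0.813% in DRF. The list includes the transmitter genes Slc17a6, Slc32a1, Gad1 and Gad2, and how specific its genes are to preoptic neurons was not tested. By limma, 4 of the 17 changed across the DRF time points and 2 across the NRF time points, beside 32.6% and 29.8% of all genes. Averaged over time, 2 of the 17 were lower in DRF and none was higher, beside 4.85% and 5.59% of all genes. Nts, the neuropeptide neurotensin, was at 36.7 ± 4.84 CPM in DRF and 43.3 ± 5.46 CPM in NRF (SD, n = 28 each, difference -0.24, adjusted p = 0.000765 by limma), a call kept under all 72 alternatives. Brs3, a bombesin-like receptor found on preoptic neurons that regulate temperature, was at 7.29 ± 1.29 against 8.21 ± 0.998 CPM (difference -0.16, adjusted p = 0.0274 by limma), a call lost in 7 of 72 alternatives. The list's median difference was -0.021, beside -0.0023 for all genes.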

How the data were processed

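RNA of 56 mice was sequenced on BGISEQ-500. Per the labels, the authors used HISAT2, Bowtie2 and RSEM with GRCm38.p6. The deposited values, named TPM, behave as a compressed score: log2(TMM-normalized CPM + 1) per base of transcript, scaled so that all mice have about the same total. Undoing this gave log2(CPM + 1) for 17380 of 17564 genes, 14539 of them with whole reads at the annotated length. Since the values are no counts, limma (version 3.58.1, R 4.3.3, 14 group means or 24-h cosines, trend on) replaced count models. Genes needed a deposited value of at least 1 in 80% of mice. Rhythm tests in Python 3.11.15 combined JTK_CYCLE and Lomb-Scargle p-values by Fisher's method on the deposited values. P-values were adjusted by Benjamini-Hochberg over all genes tested, with a threshold of 0.05. Confidence intervals use 42 residual degrees of freedom. Correlations used 100000 permutations, two-sided.

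The members and lists were chosen with earlier results of these data known. Named were all members, up to 4 called genes of each list and comparison with the largest amplitude or difference, and the 3 genes most like each member among those with a mean log2(CPM + 1) of at least 1. The companion genes of the high-Trpc4 libraries and the ZT24 against ZT0 comparison were examined after values were seen. The labels give 4 samples for each group, and p-values measure the spread between them. The scripts were tested on simulated data. The rhythm result of 1 list gene is not reported here.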

Additional observations from a re-analysis of the deposited data

Results flagged for a closer look

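In 84 groups of 4 mice (14 groups for each of 6 genes), a single mouse lay far from the other 3 in 4 cases, and chance alone would mark about 4.2 (5%). Trpc4 accounted for 2 of them, at 45.7 CPM in replicate 2 of DRF ZT20, where the other 3 mice had 17 to 19 CPM, and at 37.8 CPM in replicate 2 of DRF ZT24, where the others had 18.4 to 18.9 CPM. Adcyap1 was at 100 CPM in replicate 4 of NRF ZT20, against 74.9 to 78.4 CPM in the others. Bdnf was at 18.8 CPM in replicate 4 of NRF ZT16, against 15.3 to 15.8 CPM in the others.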

How the results depend on the processing

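The 0 members called rhythmic in DRF and the 0 called on average between regimens stayed at 0 in 20 and 72 alternatives. Of 5454 results of members under alternatives, 5405 kept their side of the threshold, 23 called results were lost and 26 results passed anew, and no called difference changed sign. Members changing across DRF time points numbered 1, but 0 with log2(deposited value + 1) and 3 with array weights, and across NRF time points 2 with array weights. For the rhythm difference the cortex and striatum covariate gave 1 member (Bdnf). For the difference that varies over time, 1 member (Bdnf) was called with that covariate, with library trends removed and without replicates 3 and 4 of DRF ZT16, and 2 with array weights. At single time points 0 pairs were called without those replicates, with log2(deposited value + 1) or with the tuberal and lateral covariate, 3 with library trends removed (Nos1 at ZT0, Adcyap1 and Bdnf at ZT16) and 2 with array weights (Ptger3 at ZT0, Adcyap1 at ZT16), so that Nos1 at ZT16 was lost in both (adjusted p = 0.102 and 0.222 by limma). Leaving out replicates gave 0 to 1 members rhythmic in NRF (Ptger3, without replicate 3), 0 to 3 changing in DRF, 0 to 1 changing in NRF, 0 to 2 with a varying difference and 0 to 1 pairs at single time points. Pathway genes rhythmic in DRF numbered 0, but 2 without ZT4 or by the limma cosine test, 4 by that test with the replicate block, and 1 without DRF ZT16 replicates 3 and 4, without both high-Trpc4 libraries or with library trends removed. Those rhythmic in NRF numbered 14, but 0 by Lomb-Scargle alone, 6 without ZT8, 5 without ZT20, 7 without ZT24 and 6 to 8 with a replicate number left out. Those differing in rhythm numbered 5, but 2 without ZT0 or ZT12, 3 without ZT24, 8 with library trends removed, 9 with array weights and 1 to 7 with replicates left out, 3 of them called without NRF ZT12 replicate 1 or 3. Those differing on average numbered 8, but 5 with library trends removed, 18 with array weights, 13 with either marker covariate and 1 to 15 with replicates left out. The cause of these shifts was not tested. Removal of library trends, the tuberal covariate, voom on recovered reads and the omission of DRF ZT16 replicates 3 and 4 or of the high-Trpc4 libraries were chosen after seeing the data. Replicate numbers do not pair the mice: deviations of same-numbered mice correlated at a median of 0.00974 (-0.535 to 0.524 over 364 pairs), against -0.00359 for other numbers, and 14 of 56 mice correlated best with their own number. With the replicate block, Nos1 kept both calls (adjusted p = 0.0207 across DRF time points and 0.0384 at ZT16 by limma), and its ZT24 minus ZT0 difference in DRF passed (adjusted p = 0.0497). Depth limits Ptger3 most, at 33 to 63 reads.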
